A study of Homo sapiens with 22 samples.

Results

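The comparison described here set 4 A549 libraries, those of transfections 4 and 5, against 4 others, those of transfections 1 and 2, to find reporters whose transcription varied between A549 transfections whatever the treatment. These 8 libraries are part of 22 in the series. They were chosen by their numbers in the labels, with the spread between A549 transfections already known from the same data, so every difference between the 4 and the 4 is given as a description and supports nothing by itself. The third transfection was left out of the comparison and served to sort the reporters.

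In the study, a pool of luciferase plasmids was introduced into A549, a human lung adenocarcinoma line, and H520, a line from a squamous cell carcinoma of the lung. Each line was given the solvent DMSO or benzo(a)pyrene (BaP) at 10 µM, a hydrocarbon of tobacco smoke, for 18 h in A549 and 42 h in H520, with 5 transfections in each of the 4 groups. The 8 compared libraries were therefore A549 with DMSO (transfections 1, 2, 4 and 5) and A549 with 10 µM BaP for 18 h (transfections 1, 2, 4 and 5), and all carried the same plasmid pool. One DNA library of the pool per line gave the input, titled v1 for A549 and v2 for H520. What sets the 2 versions apart was not examined. Both lines are long-established tumour lines and each was 1 line only. The labels do not tie the transfection numbers to dates, cultures or passages, so p-values measure the spread between these libraries, which may be technical.

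A reporter assay of this kind reads out many regulatory fragments at once. Each plasmid carries a cloned DNA fragment and a short tag in its transcript, so that the RNA of the tag relative to its DNA measures how strongly the fragment drove transcription in those cells. Transcription factors of the host cell bind the fragment, which is why a fragment can be active in one cell line and silent in another. BaP is known as a ligand of the aryl hydrocarbon receptor, which induces enzymes that metabolise it. No table pairing tags with fragments was used here, so the unit below is the tag, several tags can mark the same fragment, and a count of tags is not a count of fragments. Being synthetic, a tag does not mark a position in the genome.

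A deposited tag has 15 bases, of which the first 12 vary (capitals below) and the other 3 never do (lower case). The 6 tags printed first had the largest rise from transfections 1 and 2 to transfections 4 and 5 among well-counted tags whose 4 and 4 libraries did not overlap.
Tag 1: AAGATTATCTAGggc
Tag 2: CATATAGATAGGggc
Tag 3: ATATAGATACCGggc
Tag 4: TATGATTCGACTggc
Tag 5: ATATTTAGCTACggc
Tag 6: ATCTAAGATTAGggc
The next 6 had the largest fall by the same rule.
Tag 7: CCGTCGATGGCCggc
Tag 8: AAGGCTCCGATCggc
Tag 9: GGTACGCGGCTGggc
Tag 10: GGCCGATACGCGggc
Tag 11: TACGGTCGCAGTggc
Tag 12: CTTTACCGTCGTggc
The last 5 were the strongest A549-biased, A549-restricted, balanced and H520-biased tag in transfection 3, in that order, and the most abundant inactive tag. These classes are defined below.
Tag 13: GATGACCCGCATggc
Tag 14: GGAGTAATCCGCggc
Tag 15: ATACTACCGGAAggc
Tag 16: AACGTAATGAAAggc
Tag 17: TTACGTAACTATggc
Compared position by position, any 2 of the 12 leading tags differed at 5 to 12 of the 12 varying bases. Stretches shared at shifted positions were not counted. Their base composition differed, with 3 or 4 G or C bases in each of the 6 that rose and 6 to 9 in the 6 that fell.

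The 8 libraries held 177.6 to 349.9 M counts (M, mega). Across the series 238017 tags were read, and 211385 had at least 100 counts in both inputs and were analysed. At that limit the 1160 tags that passed by less than 10 counts had a median absolute log2 difference of 0.0668 between the 4 and the 4 libraries, and the 1169 tags that missed it by 10 counts or fewer had 0.0683, against 0.0564 over all analysed tags. Activity compares the TPM of a tag (its counts per M counts of a library) in RNA and input, as a log2 ratio with 0.5 added to each. The median of the library was then set to 0. Chi-square per degree of freedom was 4.70 to 90.4 over the 28 pairs of the 8 libraries, well above sampling noise, so none was a copy.

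Tags were sorted by libraries outside the comparison, namely A549 transfection 3 (both treatments) and the 10 H520 libraries. A tag was active with a log2 activity of at least 1 in either line, and 3924 tags were. Of these, 1596 were A549-biased (at least 1 log2 unit higher in A549), 423 were H520-biased, 1817 were balanced (within 1 unit) and 88 were A549-restricted (at least 4 in A549 and under 0.5 in H520). The other 207461 tags were inactive.

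The A549-biased tags varied most. Their mean log2 activity was 1.72 ± 0.33 (SD, n = 4) in transfections 1 and 2 and 2.48 ± 0.16 (SD, n = 4) in transfections 4 and 5, a difference of 0.76. The A549-restricted tags, whose mean is high by their definition, stood at 4.67 ± 0.14 and 4.50 ± 0.21 (SD, n = 4 each). Balanced tags differed by -0.02, H520-biased tags by -0.10 and inactive tags by 0.01. Levels of the A549-restricted tags overlapped in the 4 and the 4 libraries, 4.48 to 4.80 and 4.23 to 4.67.

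The A549-biased tags fell into 2 separate groups, the balanced tags had a main group and a tail of higher tags, and the H520-biased and A549-restricted tags formed 1 group each. Of the A549-biased tags, 1306 were higher by 0.3 or more in transfections 4 and 5, with a median of 0.99, and 277 were below 0, with a median of -0.25. Only 13 lay from 0 to 0.3. Among the balanced tags 231 were at 0.3 or more, with a median of 0.74, and 1414 were below 0. No H520-biased and no A549-restricted tag reached 0.3, and 363 of 423 and 83 of 88 were below 0.

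**Figure D1:**
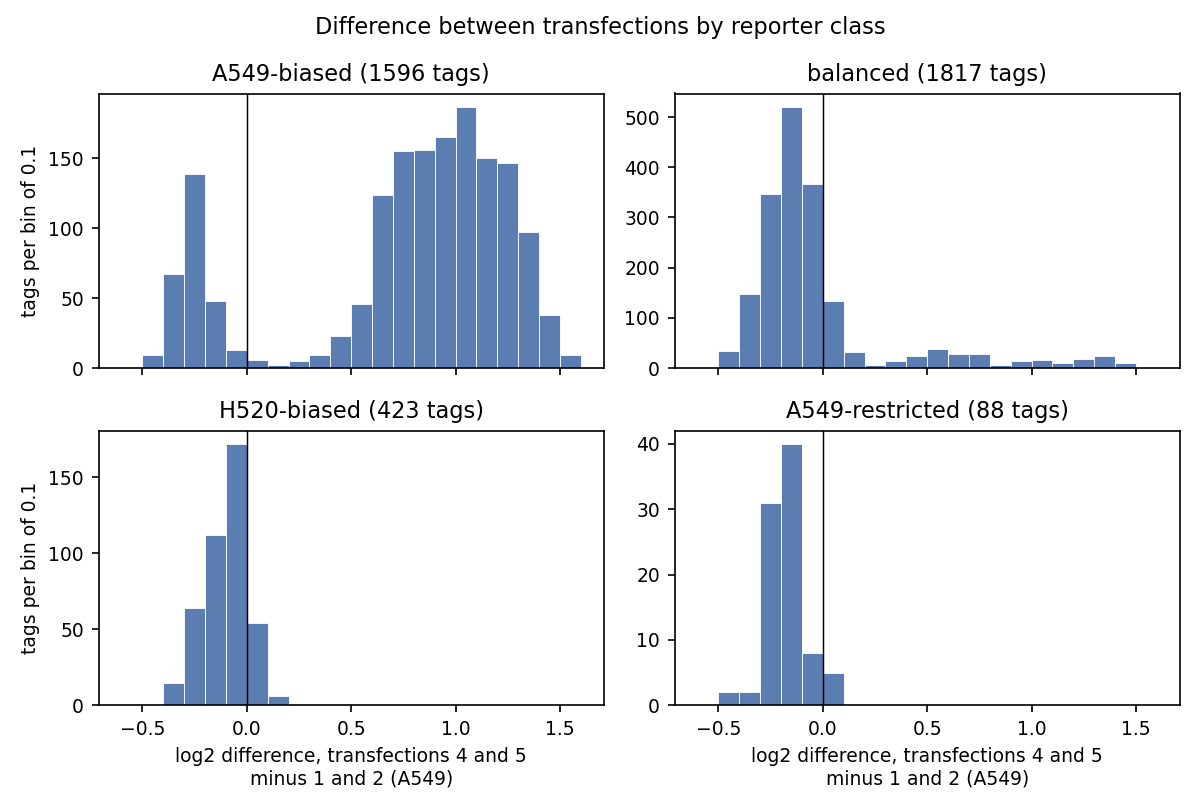
Number of active tags (vertical axis, tags per bin of 0.1) by the log2 difference between the mean of A549 transfections 4 and 5 and the mean of transfections 1 and 2 (horizontal axis), 1 panel per class. The A549-biased panel has 2 humps, with 1306 tags at 0.3 or more and 277 below 0, whereas no tag of the H520-biased and A549-restricted panels lies at 0.3 or more.

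Transfection 3, which the comparison did not use, split the active tags in the same way. In 1452 active tags its BaP library lay above its DMSO library by 0.4 log2 units or more, and these are called co-varying here. The other 2472 are called steady. They include tags that were lower with BaP by any amount, such as tag 10 at -0.41. The limit was chosen after seeing values, and 89 tags lay within 0.1 above it and 75 within 0.1 below it. The co-varying tags comprised 1237 of the 1596 A549-biased tags, 203 of the 1817 balanced, 12 of the 423 H520-biased and 0 of the 88 A549-restricted tags. Since they were chosen by the BaP library of transfection 3 being higher than its DMSO library, their levels in that transfection are a description only.

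The co-varying tags rose and fell together by up to 3.03-fold between A549 libraries, and neither treatment nor number ordered all libraries. With DMSO their mean log2 activity was 2.33, 1.56, 1.74, 2.45 and 2.76 in transfections 1 to 5. With BaP it was 1.42, 1.69, 2.64, 2.68 and 3.02. The 4 libraries of transfections 4 and 5 all lay above the 4 of transfections 1 and 2, but the DMSO library of transfection 1 was within 0.11 of the DMSO library of transfection 4. In the order of all 10 libraries the widest gap, 0.59, lay between the DMSO libraries of transfections 3 and 1, so that 4 libraries (BaP 1, DMSO 2, BaP 2 and DMSO 3) formed a low group and 6 a high group. The split by number thus separated the 8 libraries by a gap of 0.11 only. In the DMSO libraries transfection 1 belonged with the high ones and transfections 2 and 3 with the low ones, and transfection 3 had 1 library of each kind. The labels were used as given, and whether any was exchanged was not tested. Tags at 0 in both inputs took 4.51 and 4.94 counts per M in transfection 1 (DMSO, BaP) and 7.13 and 9.59 in transfection 3. In transfections 4 and 5 they took 4.48 to 10.2.

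**Figure D2:**
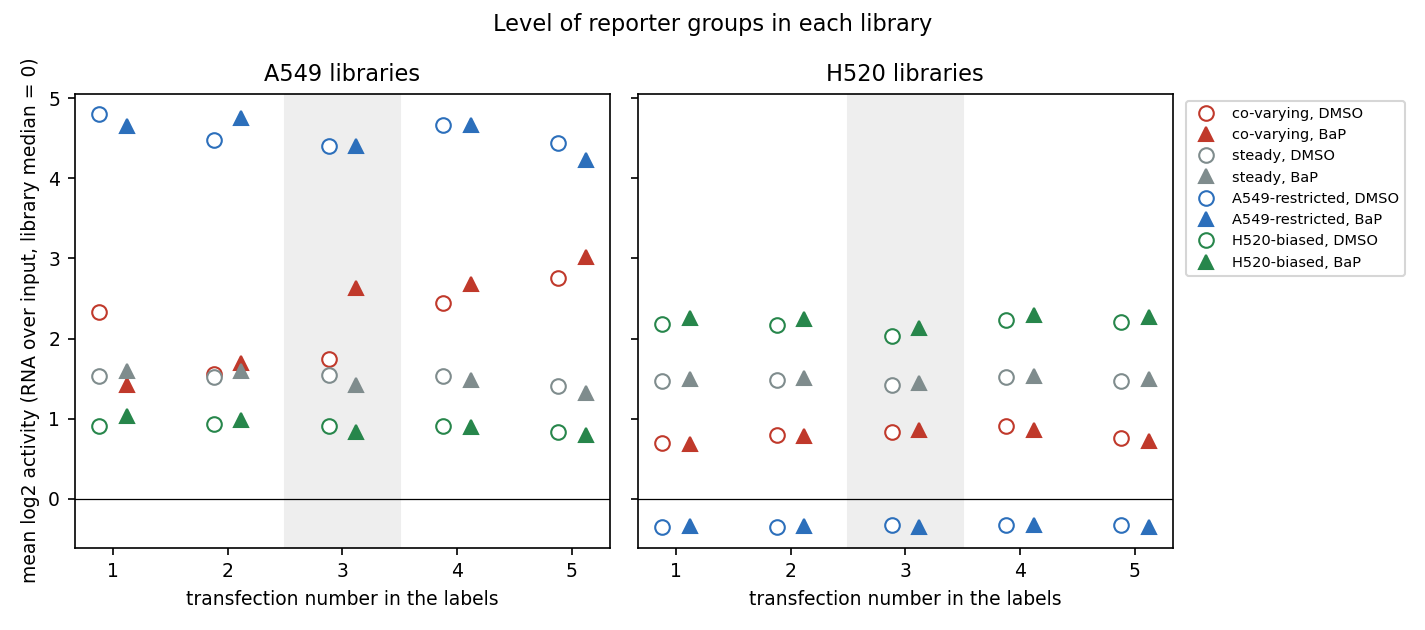
Mean log2 activity (vertical axis, library median = 0) of co-varying, steady, A549-restricted and H520-biased tags in each library of A549 (left) and H520 (right), by transfection number (horizontal axis), with open circles for DMSO and triangles for BaP. Grey shading marks transfection 3, whose 2 A549 libraries defined the co-varying tags. The co-varying tags range from 1.42 to 3.02 in A549 and from 0.68 to 0.91 in H520. The A549-restricted and H520-biased tags are also drawn among the steady tags, except for 12 H520-biased ones.

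Averaged over the comparison, the co-varying level was 1.75 ± 0.40 (SD, n = 4) in transfections 1 and 2 and 2.72 ± 0.24 (SD, n = 4) in transfections 4 and 5, a difference of 0.97 or 1.97-fold. The difference was 0.66 with DMSO and 1.29 with BaP. The steady tags stood at 1.56 ± 0.04 and 1.44 ± 0.09 (SD, n = 4 each), a difference of -0.12, and their groups of libraries overlapped (1.51 to 1.60 against 1.32 to 1.53). As a share of all counts, the co-varying tags took 10.2%, 5.61%, 5.88%, 11.1% and 14.3% in DMSO transfections 1 to 5 and 4.95%, 6.05%, 11.9%, 13.5% and 16.9% with BaP. The widest 95% Wilson interval of these shares was 0.00874 percentage points, which covers counting error only, since no molecular identifiers are described.

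Since the counts of a library have a fixed sum, a rise of some tags lowers the TPM of all others. The library median, before it was set to 0, was -0.22 to -0.15 in transfections 1 and 2 and -0.30 to -0.23 in transfections 4 and 5. Without that centring the steady tags differed by -0.21, the balanced by -0.11 and the H520-biased by -0.19, in the same direction as with it. The mean of that median was -0.17 and -0.26, so the choice of scale shifts every set by about as much as the steady tags differ.

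Single tags followed the group closely. Of the 1452 co-varying tags, 1438 were higher in transfections 4 and 5, with a median difference of 0.99 (5th to 95th percentile 0.56 to 1.38), against a median of 0.00 (-0.14 to 0.16) over all 211385 tags. All 4 libraries of transfections 4 and 5 lay above all 4 of transfections 1 and 2 in 1091 of them (75.1%), and below in 2. Over all tags these shares were 3.75% above and 3.46% below. Of the steady tags 82 (3.32%) lay above, close to the share of all tags, and 476 (19.3%) below. The 359 steady tags that were A549-biased departed more, with 55 (15.3%) above and 118 (32.9%) below. Steady and co-varying thus refer to transfection 3 only. The 14 co-varying tags with an A549 activity under 1 in transfection 3 had a median difference of -0.05. Among the A549-restricted tags 0 lay above and 3 below, and among the H520-biased tags 2 and 45.

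The co-varying tags also tracked each other over the 8 libraries. The Pearson r between a tag and the mean of the other co-varying tags had a median of 0.994 and was over 0.9 in 1414 of 1452 tags (97.4%), as a description over 8 shared libraries. Its lowest value was -0.82. Of all active tags, the first principal component over the 8 libraries held 93.9% of the variance and the second 3.19%. The 1000 tags with the largest SD over the 8 libraries, among those with a mean of at least 500 counts, comprised 970 co-varying, 2 steady and 28 inactive tags. The median SD of a tag was 0.62 for co-varying, 0.15 for steady and 0.09 for inactive tags.

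The same tags differed in separate sets of libraries. Across the 3924 active tags, the difference between transfections 4 and 5 and transfections 1 and 2 with DMSO correlated with that in the BaP libraries with Pearson r 0.975 and Spearman rho 0.906. The difference between the BaP and DMSO libraries of transfection 3 correlated with the DMSO difference with r 0.914 and rho 0.779, and with the BaP difference with r 0.943 and rho 0.844. Across the 207461 inactive tags the same 3 values of r were 0.374, 0.002 and 0.069. They are computed across tags, which are no independent samples and in part share fragments and base composition, and carry no p. The group of tags was thus alike in DMSO, in BaP and in transfection 3, where the higher library was the BaP one, while in transfection 1 the higher library was the DMSO one.

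**Figure D3:**
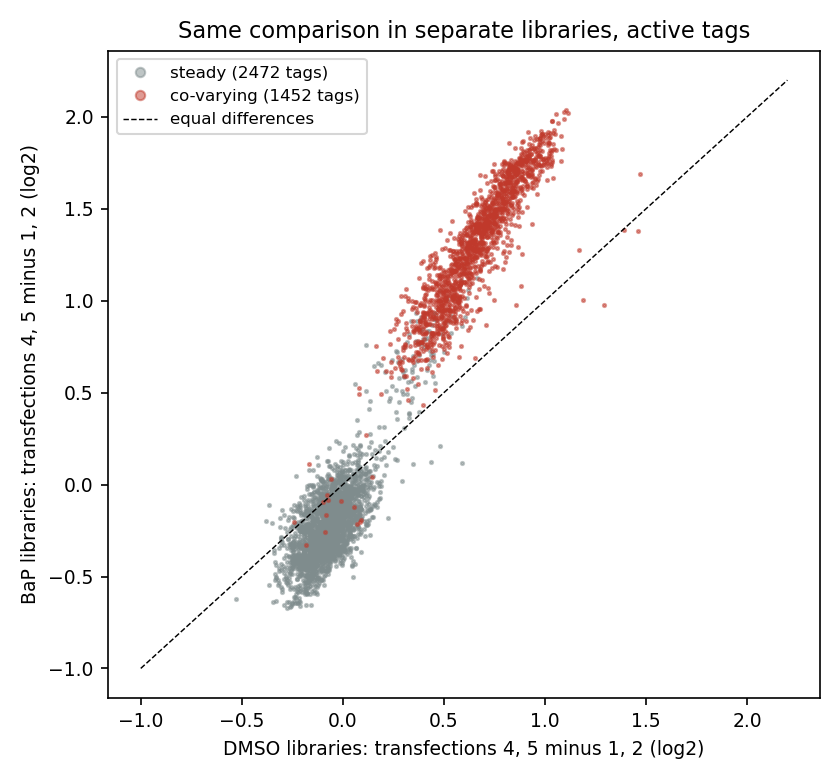
Each point is an active tag, placed by its log2 difference between A549 transfections 4 and 5 and transfections 1 and 2 in the DMSO libraries (horizontal axis) and in the BaP libraries (vertical axis), with co-varying tags in red, steady tags in grey and a dashed line of equal differences. Pearson r is 0.975 over the 3924 tags. The co-varying tags form a cloud above the dashed line, with group differences of 0.66 with DMSO and 1.29 with BaP.

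Tag 1, AAGATTATCTAGggc, led the rise. With DMSO it was read at 210 TPM, 98.4 TPM, 162 TPM, 285 TPM and 309 TPM in transfections 1 to 5. With BaP it was at 76.6 TPM, 117 TPM, 330 TPM, 325 TPM and 396 TPM. Its DMSO library of transfection 1 was the highest of the 4 in transfections 1 and 2 and its BaP library of the same transfection the lowest of all 10. The fitted log2 fold change of transfections 4 and 5 over 1 and 2 was 1.52 (SE 0.29), or 2.87-fold. In H520 the same tag ranged from 28.9 TPM to 40.2 TPM with a median of 33.6 TPM over 10 libraries.

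The other 5 leading tags that rose repeated this profile. Their log2 fold changes were 1.52 (SE 0.39) for tag 2, 1.51 (SE 0.35) for tag 3, 1.49 (SE 0.29) for tag 4, 1.49 (SE 0.41) for tag 5 and 1.48 (SE 0.32) for tag 6. All 6 were A549-biased and co-varying, with transfection 3 activities of 2.91 to 3.73 and H520 activities of 0.69 to 1.70. Tag 4 went from 256 TPM, 93.7 TPM, 113 TPM and 135 TPM (DMSO 1, BaP 1, DMSO 2, BaP 2) to 320 TPM, 364 TPM, 380 TPM and 466 TPM (DMSO 4, BaP 4, DMSO 5, BaP 5). Its lowest and highest libraries were thus both BaP libraries.

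Co-variation was not limited to tags classed as A549-biased, a class that depends on the input of each line. The strongest balanced tag, tag 15 (ATACTACCGGAAggc), with activities of 4.63 in A549 transfection 3 and 4.52 in H520, went from 907 ± 261 TPM to 1872 ± 289 TPM (SD, n = 4 each), a log2 fold change of 1.16 (SE 0.34). Its inputs differed widely, at 16673 counts for A549 and 1397 for H520, and its place among the balanced tags rests on them. Its RNA was at 99.7 TPM to 150 TPM in H520, far below its A549 levels. The balanced tag with the largest rise, ACGAATAGAATTggc, went from 65.5 ± 17.8 TPM to 163 ± 25.1 TPM (SD, n = 4 each), a log2 fold change of 1.44 (SE 0.20). In H520 it ranged from 23.8 TPM to 29.6 TPM. Its activities of 3.97 in A549 transfection 3 and 2.99 in H520 put it close to the A549-biased limit. Its inputs held 2773 counts for A549 and 828 for H520. The strongest A549-biased tag, tag 13 (GATGACCCGCATggc), went from 86.9 ± 35.5 TPM to 189 ± 40.7 TPM (SD, n = 4 each), a log2 fold change of 1.24 (SE 0.33).

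The A549-restricted tags gave the contrast. Tag 14 (GGAGTAATCCGCggc), the strongest of them in transfection 3, was read at 570 TPM, 549.5 TPM, 483 TPM and 586 TPM in transfections 1 and 2 (DMSO 1, BaP 1, DMSO 2, BaP 2). It was at 492 TPM, 469 TPM, 423 TPM and 366 TPM in transfections 4 and 5 (DMSO 4, BaP 4, DMSO 5, BaP 5). These ranges overlapped, and the log2 fold change was -0.22 (SE 0.22). The restricted tag with the highest log2 fold change, TATAGATACTCTggc at 0.05 (SE 0.22) after TMM scaling, was at 437 ± 52.3 TPM and 423 ± 99.5 TPM (SD, n = 4 each), a difference of either sign within the spread. Both tags were far above their H520 levels, which had medians of 7.26 TPM and 4.62 TPM over 10 libraries.

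The 6 leading tags that fell did so by less than the 6 leading ones rose. Tag 7 (CCGTCGATGGCCggc), an A549-biased but steady tag, had the largest fall among the well-counted tags whose groups did not overlap. It was at 7.63 TPM, 8.17 TPM, 10.3 TPM and 9.48 TPM in transfections 1 and 2 and at 5.76 TPM, 5.05 TPM, 5.70 TPM and 5.08 TPM in transfections 4 and 5, in the same order of libraries. Its groups did not overlap, and its log2 fold change was -0.61 (SE 0.07). Tags 8 to 12 had log2 fold changes from -0.48 to -0.46. Tag 8 was A549-restricted, tags 9 to 11 were balanced and tag 12 was A549-biased, and all were steady. Tag 9 (GGTACGCGGCTGggc) fell from 52.5 ± 7.36 TPM to 35.1 ± 4.49 TPM (SD, n = 4 each), while its H520 level ran from 77.6 TPM to 98.2 TPM.

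Tags chosen for abundance or strength in the other classes gave small differences. Tag 16 (AACGTAATGAAAggc), the H520-biased tag with the highest A549 activity, was at 94.7 ± 8.32 TPM and 83.7 ± 13.6 TPM (SD, n = 4 each), with a log2 fold change of -0.07 (SE 0.12) and a median of 298 TPM in H520. The H520-biased tag with the highest log2 fold change, ATAATTCGTAAGggc, had 0.12 (SE 0.07). Tag 17 (TTACGTAACTATggc), the inactive tag with the highest input count, was at 58.0 ± 1.253 TPM and 57.0 ± 3.10 TPM (SD, n = 4 each), but its log2 fold change after TMM scaling was 0.08 (SE 0.08), so its sign depended on the scale. These tags do not stand for their classes: 45 of the 423 H520-biased tags (10.6%) lay lower in all 4 libraries of transfections 4 and 5, against 3.46% of all tags.

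Among co-varying tags the difference grew with strength and then levelled. Its median was 0.70 in 413 tags with a transfection 3 activity of 1 to 1.5, 0.93 in 303 tags at 1.5 to 2 and 1.05 in 273 tags at 2 to 2.5. It was 1.22 in 150 tags at 2.5 to 3, 1.27 in 89 tags at 3 to 3.5, 1.32 in 107 tags at 3.5 to 4 and 1.30 in 103 tags at 4 or more. Transfection 3 activity is a mean of 2 libraries of which 1 was high, so stronger co-varying tags were partly sorted by that library. By H520 activity, measured in other cells, the median rose in the same way, from 0.77 in 154 tags below 0 to 1.31 in 85 tags at 2 to 3 and 1.31 in 45 tags at 3 to 4, with 1.17 in 34 tags at 4 or more. The 2 orders are not separate. The median H520 activity of co-varying tags was 0.20 at a transfection 3 activity of 1 to 2 and 3.56 at 4 or more. Steady tags had medians of -0.30 to -0.11 in the same transfection 3 ranges, with no such rise.

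**Figure D4:**
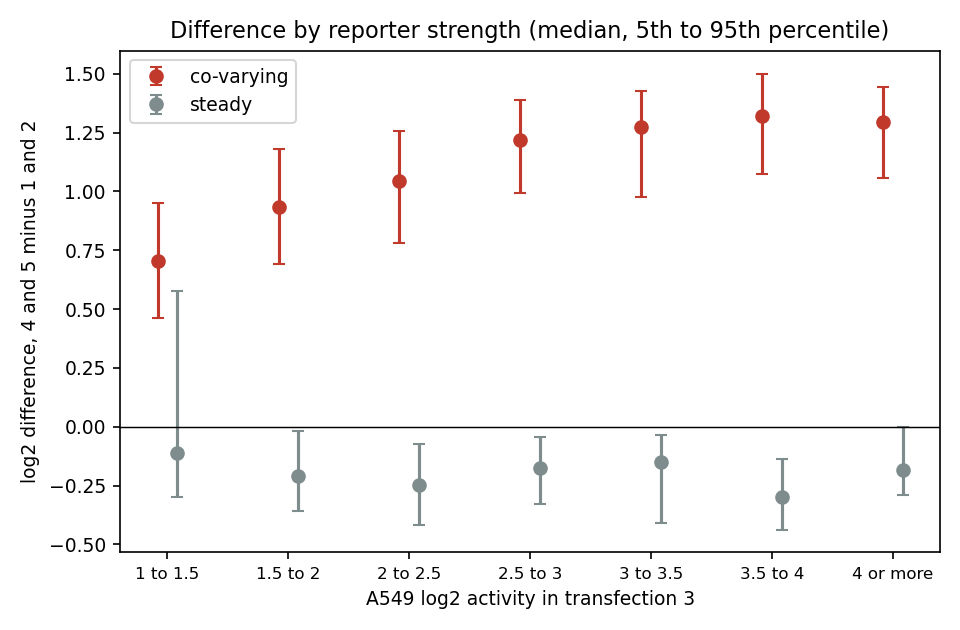
Median log2 difference between A549 transfections 4 and 5 and transfections 1 and 2 (vertical axis) of co-varying (red) and steady (grey) tags in ranges of A549 activity in transfection 3 (horizontal axis), with bars from the 5th to the 95th percentile of tags. The co-varying medians go from 0.70 to 1.32 and the steady medians stay between -0.30 and -0.11. Tags under 1 in A549 are not drawn.

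The share of co-varying tags also changed with strength. They made up 38.0% of active tags with a transfection 3 activity of 1 to 2 (716 of 1884), 49.4% at 2 to 3 (423 of 857) and 72.6% at 3 to 4 (196 of 270). At 4 or more they were 103 of 193 (53.4%), and 88 of the other 90 tags were the A549-restricted ones. The strongest A549 reporters were thus nearly all of one or the other kind. The co-varying ones had H520 activities of 2.20 to 4.94 (median 3.56), so they were strong in both lines when each was set against its own input. The restricted tags had almost no H520 signal by their definition. Strength in H520 depends on the input used: the 64 co-varying tags with an A549 input at least 4 times the H520 input had a median transfection 3 activity of 4.19.

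The co-varying tags were lower with BaP than with DMSO in transfection 1 and higher with BaP in the other transfections. Over 5 transfections each, their level was 2.17 ± 0.50 with DMSO and 2.29 ± 0.69 with BaP (SD, n = 5 each), a difference smaller than the spread. BaP minus DMSO of the same number was -0.91, 0.13, 0.89, 0.23 and 0.26 in transfections 1 to 5, and the value of 0.89 belongs to the transfection that chose the tags. In the 8 compared libraries, edgeR's quasi-likelihood test of BaP over DMSO with the number group as covariate called 0 of 211385 tags (0%) at an adjusted p under 0.05, and DESeq2 called 0. In edgeR 4983 tags (2.36%) had an unadjusted p under 0.05, and 1 of the 1452 co-varying tags did. The co-varying tags had a median log2 fold change of -0.10 with BaP. Their libraries spread widely within each number group, which limits what this test could detect. The smallest p belonged to the inactive tag CGGACGTTTATGggc, with a log2 fold change of 0.62 (SE 0.13) and an adjusted p of 1 by edgeR, from 0.569 TPM to 0.705 TPM in the 4 DMSO libraries and 0.822 TPM to 1.14 TPM in the 4 BaP libraries.

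Whether the difference between the number groups itself depended on treatment was tested by an interaction term, which the choice of the comparison did not use. edgeR called 0 of 211385 tags (0%) and so did DESeq2, with 6116 tags (2.89%) at an unadjusted p under 0.05 in edgeR. The co-varying tags had a median interaction of 0.75 log2 units, larger with BaP, and 158 of 1452 (10.9%) had an unadjusted p under 0.05. Without the DMSO library of transfection 2, which was low, 514 tags were called higher. The tag with the smallest p was the co-varying AAGTCGATAGTTggc, with an interaction of 0.74 (SE 0.14, edgeR adjusted p = 1). It went from 6.64 TPM and 5.28 TPM (DMSO 1 and 2) to 7.44 TPM and 7.17 TPM (DMSO 4 and 5), and from 4.35 TPM and 4.76 TPM to 8.83 TPM and 8.73 TPM with BaP.

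The H520 libraries with the same numbers were compared in the same way, and the co-varying tags moved little there. Their level in H520 was 0.70, 0.80, 0.84, 0.91 and 0.75 in DMSO transfections 1 to 5 and 0.68, 0.78, 0.85, 0.86 and 0.72 with BaP. Transfections 1 and 2 averaged 0.74 ± 0.06 and transfections 4 and 5 averaged 0.81 ± 0.09 (SD, n = 4 each), a difference of 0.07 within the spread. The order of the 5 numbers was the same with DMSO and BaP in H520 (1, 5, 2, 3, 4 from low to high) and was another than in A549. edgeR and DESeq2 each called 0 of 211385 tags (0%) in either direction, and by edgeR the unadjusted p was under 0.05 for 10408 tags (4.92%). Without both libraries of transfection 5 the H520 counts were 54 higher and 6 lower. Of the co-varying tags 234 (16.1%) had such a p, with a median log2 fold change of 0.09.

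In H520 the 4 libraries of transfections 4 and 5 lay above the other 4 in 1.42% of all tags and below in 1.55%. Among the co-varying tags 48 (3.31%) lay above and 4 below. The tag with the smallest p in H520, CTTGCGACCTAAggc, was itself co-varying in A549, with log2 fold changes of 0.26 (SE 0.06) in H520, where edgeR's adjusted p was 0.986, and 1.07 (SE 0.32) in A549. Its H520 range was 7.65 TPM to 10.3 TPM. The difference between the lines in the size of these changes was not tested.

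By edgeR, with treatment as covariate, 1200 tags (0.568% of 211385) were higher and 553 (0.262%) lower in transfections 4 and 5 at an adjusted p under 0.05. This list used the contrast that was chosen with results known and is only a description. In this fit the list held mainly small changes: log2 fold changes of the higher tags ran from 0.19 to 1.52 with a median of 0.36, and 1066 of the 1200 (88.8%) were inactive tags. Only 111 co-varying tags (7.64% of 1452) were in it, although 1428 of 1452 had an unadjusted p under 0.05. Their libraries spread widely within each group of 4. Their part in the list depended on the model: 999 co-varying tags were called higher by DESeq2 (of 3088 higher calls), 785 with the DMSO and BaP counts of a transfection summed (of 2198) and 1317 with BaP libraries only (of 3499), against 5 of 6 with DMSO libraries only. Leaving out 1 library gave 324 higher calls (without DMSO 2) to 4143 (without DMSO 1, 1283 of them co-varying). Without both libraries of transfection 2 the count was 0, with 14242 tags at an unadjusted p under 0.05. With a required change of more than 1.5-fold it was also 0, with 845 tags at an unadjusted p under 0.05.

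The inactive tags among the higher calls resembled the co-varying profile in part, at low amplitude. Their rise itself was fixed by their selection from the same 8 libraries. The 1066 tags had a median activity of 0.38, 0.16, 0.20 and 0.22 in transfections 1 and 2 (DMSO 1, BaP 1, DMSO 2, BaP 2). In transfections 4 and 5 the median was 0.50, 0.56, 0.54 and 0.63 (DMSO 4, BaP 4, DMSO 5, BaP 5). In both series the DMSO library of transfection 1 was the highest of the first 4 and the BaP library of transfection 1 the lowest. Among the last 4 the order differed, since DMSO 5 lay below BaP 4 in the inactive tags and above it in the co-varying tags. Their median activity in transfection 3 was 0.42, under the limit of 1 for active tags, and in H520 it was -0.15. The 553 lower calls comprised 233 steady tags, 320 inactive tags and 0 co-varying tags, with log2 fold changes of -0.81 to -0.19.

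The base composition of the tag moved with the difference over all tags. The median log2 difference fell from 0.12 in 2229 tags with 2 G or C bases among the 12 to -0.10 in 624 tags with 10. The same order held among inactive, steady and co-varying tags, and the co-varying medians went from 1.19 at 3 G or C bases (74 tags) to 0.85 at 9 (40 tags). The tags called higher had a mean G and C content of 40.2%, those called lower 62.2% and all tags 47.7%. Between libraries, the median activity of inactive tags with 3 or fewer G or C bases minus that of tags with 9 or more was -0.32 to -0.18 in transfections 1 and 2, -0.22 to 0.09 in transfections 4 and 5 and -0.07 to 0.05 in transfection 3. Transfections 4 and 5 differed in it, with 0.09 and 0.07 in transfection 4 (DMSO, BaP). In transfection 5 it was -0.22 in both libraries, inside the range of transfections 1 and 2. The part of this shift in the list of called tags was not tested. The co-varying and steady tags themselves differed little in composition, with means of 48.1% and 48.6%, and co-varying tags were higher in transfections 4 and 5 at every G and C count from 2 to 10, with medians of 0.71 (4 tags) to 1.28 (6 tags).

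The co-varying tags differed from the others in the 2 input libraries. Their ratio of A549 input TPM to H520 input TPM had a median of 1.16, against 0.994 for steady and 0.992 for inactive tags. In 64 co-varying tags the A549 input held at least 4 times the H520 input (log2 ratio of 2 or more), and in 0 steady and 3 inactive tags. The difference between transfections was 0.74 at the median in the 58 co-varying tags with a log2 input ratio under -0.5, and 1.29 in those 64. The inputs cancel in any difference between A549 libraries, but they enter activity and so the classes. With the H520 input as denominator for both lines, classes included, the co-varying level differed by 0.95 in place of 0.97. The part of the input ratio in the choice of tags was not tested.

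The input depth moved with the difference less than strength did. Over ranges of the lower input count from 100 to 200 up to 2000 or more, the median difference of co-varying tags stayed between 0.95 and 1.03. Of the 1452 co-varying tags, 71 (4.89%) lay within 1 mismatch of another co-varying tag. Of the 2472 steady tags, 320 (12.9%) lay within 1 mismatch of another steady tag, and 97.9% of all tags lay within 1 mismatch of some other tag. These shares depend on the size of each set, and no expected share was computed. Tags at 0 counts in both inputs, 4685 in number, took 4.51 to 6.003 counts per M in transfections 1 and 2 and 4.48 to 10.2 per M in transfections 4 and 5, with overlapping ranges. The high values were those of transfection 4 (9.97 with DMSO, 10.2 with BaP), against 5.18 and 4.48 in transfection 5. The 10 most abundant tags of each library took 0.906% to 1.57% and 1.71% to 2.59% of its counts.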

How the data were processed

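Amplicon libraries of reporter tags from RNA (20) and input DNA (2) were used. Per the labels' protocols, polyadenylated RNA was copied into cDNA and the tag was amplified. The submitters' processing notes name bcl2fastq. The sources used here do not say how reads were matched to tags. The deposited files give, per the file headers, a raw count and a TPM value per tag, and a total count per library, which equals the sum of its counts. The authors' TPM values are counts per M of that total, with no length term.

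The tables were joined by tag sequence, and unlisted tags were set to 0 counts. Tags with at least 100 counts in both inputs entered. The members and lists were chosen with earlier results of these data known. edgeR 4.0.16 (TMM, filterByExpr, robust quasi-likelihood test, Benjamini-Hochberg threshold 0.05) was fitted over all tags to the 8 libraries with number group and treatment, to their interaction, and to the 8 H520 libraries. DESeq2 1.42.0 and limma 3.58.1 served for alternatives, in R 4.3.3. The fits were tested on simulated data. Libraries were the replicates, and the shared transfection number was tried as a block.

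Named tags had at least 500 counts in both inputs and a mean of at least 500 over the 8 libraries. They were the 6 with the largest log2 fold change in each direction among those whose groups did not overlap, the strongest of each class, the largest change against the median of each active class, and the smallest p of each test not used by the choice (with no count limit).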

Additional observations from a re-analysis of the deposited data

Results flagged for a closer look

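In 44 groups of 5 libraries, the level of each class and group of tags was searched for a library far from the others, which chance alone finds in about 1 group in 20. Of these, 2 levels stood apart, which is no more than this rate gives over 44 groups. The sets of tags also overlap. The steady tags had their lowest A549 level with DMSO in transfection 5, at 1.40 against 1.51 to 1.55 in the other 4 DMSO libraries. That library also had the highest co-varying level with DMSO, 2.76. The H520-biased tags had their lowest H520 level with BaP in transfection 3, at 2.13 against 2.24 to 2.29 in the other 4 BaP libraries.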

How the results depend on the processing

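The co-varying level difference of 0.97 stayed between 0.88 and 1.003 over other scalings, pseudocounts, inputs, classes and limits, and between 0.87 and 1.17 with a library left out (0.3 and 0.5 as limits and the left-out libraries were added after seeing values). Without centring, the balanced, H520-biased and steady levels moved to -0.11, -0.19 and -0.21. No level changed its sign in the settings run. For the named tags 380 values stayed on their side of the threshold, 77 lost it and 49 gained it.

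Counts of called tags moved more. Higher and lower calls in A549 were 1200 and 553. They were 3088 and 1187 with DESeq2 (73769 tags without an adjusted p), 2198 and 183 with both treatments of a transfection summed, 6 and 0 with DMSO libraries only, 3499 and 667 with BaP libraries only, and 0 and 0 at 1.5-fold. Leaving out 1 library gave 324 to 4143 higher and 69 to 1405 lower, and leaving out a transfection 0 to 4178 higher and 0 to 3134 lower, with the largest counts without transfection 5 and none without transfection 2. The transfection number as a random replicate block (limma, correlation 0.13) gave 2902 higher, of which 1423 were co-varying and 1391 inactive, and 445 lower. The interaction had 17 higher calls with a fixed replicate block and 0 to 514 with a library left out. The block gave 0 calls for BaP in A549 and for the H520 comparison. Deviations of same-numbered A549 libraries correlated at -0.02 to 0.49, with 3 of 5 pairs over 0.1, and 2 of 5 correlated best with their own number. In H520 they correlated at 0.04 to 0.16, and 4 of 5 did. Since not every pair was over 0.1, the number was not taken as a pairing, though some pairs share deviations. H520 calls were 5 higher with BaP libraries only. They were 0 to 4 higher without 1 library, and 0 to 54 higher and 0 to 6 lower without 1 transfection. The causes were not tested.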
